A study of Mus musculus with 48 samples.

Results

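Hippocampal RNA of male mice exposed during development to lead and manganese together was compared with that of male mice exposed to manganese alone. The comparison used 12 of the 48 RNA sequencing libraries of the series, 6 male Pb+Mn and 6 male Mn, found by the labelled sex and exposure of each animal. The mice were of CD-1, an outbred stock, and were sampled at 2 months of age. Their dams drank water with manganese (Mn, 2 g/L) or with the same manganese and lead (Pb, 100 ppm). The exposure lasted 8 weeks, began 2 weeks before mating and ended at weaning, on postnatal day 21. Both groups thus carried the manganese exposure, and lead was the only labelled difference between them. The series also held male and female animals with lead alone or without either metal, and females with manganese or both metals, at 6 animals a group. Male Pb, male control, female Mn and female Pb+Mn libraries served here as comparisons that share no library with the main one. The labels number the animals and do not say which were littermates, so the spread behind each p-value is that of single animals, and litters could not be taken into account. Males and females of the same exposure could be littermates, so a comparison that shares no library need not be independent of the main one.

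Lead inhibits delta-aminolevulinate dehydratase, the enzyme gene Alad of the heme pathway, and blocks the NMDA class of glutamate receptors. It also passes through calcium channels and replaces calcium and zinc in proteins. Manganese is an essential cofactor that becomes toxic in excess, and its level in brain is set by the importers Slc39a8, Slc39a14 and Slc11a2 and by the exporter Slc30a10. The hippocampus takes part in memory and, through its CA2 field, in social recognition. The title of the study names social processing and males, and the comparison asks which hippocampal transcripts differ when lead is added to manganese.

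Total counts ran from 12.1 to 15.7 M in the 6 male Mn libraries and from 14.7 to 24.3 M in the 6 male Pb+Mn libraries, with medians of 13.6 and 17.9 M. Markers of the hippocampal fields were present in every library. The 12 dentate granule cell markers summed to between 590 and 901 CPM (counts per M of the scaled library total), the 10 CA1 markers to between 481 and 1080 CPM, and the 12 CA2 and CA3 markers to between 568 and 659 CPM. The 17 markers of choroid plexus, the epithelium of the ventricles that makes cerebrospinal fluid, summed to between 325 and 3330 CPM in Mn libraries and between 279 and 6700 CPM in Pb+Mn libraries. The slope of expression on transcript length, a measure that moves with RNA quality, averaged -0.001 ± 0.07 in Mn and 0.047 ± 0.047 in Pb+Mn (SD, n = 6 each). Mitochondrially encoded transcripts took 4.52 to 8.38% of counts in Mn and 4.38 to 5.91% in Pb+Mn.

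Adding lead to manganese gave no gene that passed the threshold. Of 16360 genes tested, 0 (0%) had an adjusted p under 0.05, and the smallest was 0.88 (edgeR quasi-likelihood test, Benjamini-Hochberg). Without adjustment, 660 genes (4.03% of those tested) had a p under 0.05, 331 of them higher in Pb+Mn (2.02%) and 329 lower (2.01%), and DESeq2 and limma voom gave 659 and 634 such genes and also 0 past the threshold. An even spread of p-values would put 818 genes there, and the count was on the other side of it in a fit of the 12 libraries alone (1320) and by limma voom with library weights (1665). The median log2 fold change of Pb+Mn over Mn was -0.003, with 49.3% of genes positive, and its 5th and 95th percentiles were -0.39 and 0.33. The median standard error (SE) of a log2 fold change was 0.16. In data simulated for this comparison on 16221 genes, 49 or 50 genes were altered at each of several folds. A true 1.5-fold difference was detected in 42.9% of the altered genes, a 2-fold difference in 75.5% and a 4-fold difference in 88%. The simulation drew each gene independently, with no variation shared between genes, and gave 154 calls. More calls make the adjustment less strict, so these rates need not hold where 0 genes pass. The libraries of the groups did not overlap for 42 genes (0.257%), with all 6 Pb+Mn values above all 6 Mn values for 20 (0.122%) and below for 22 (0.134%). Among 16360 genes some would separate fully without any effect of lead, and the number to be expected was not computed.

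**Figure D1:**
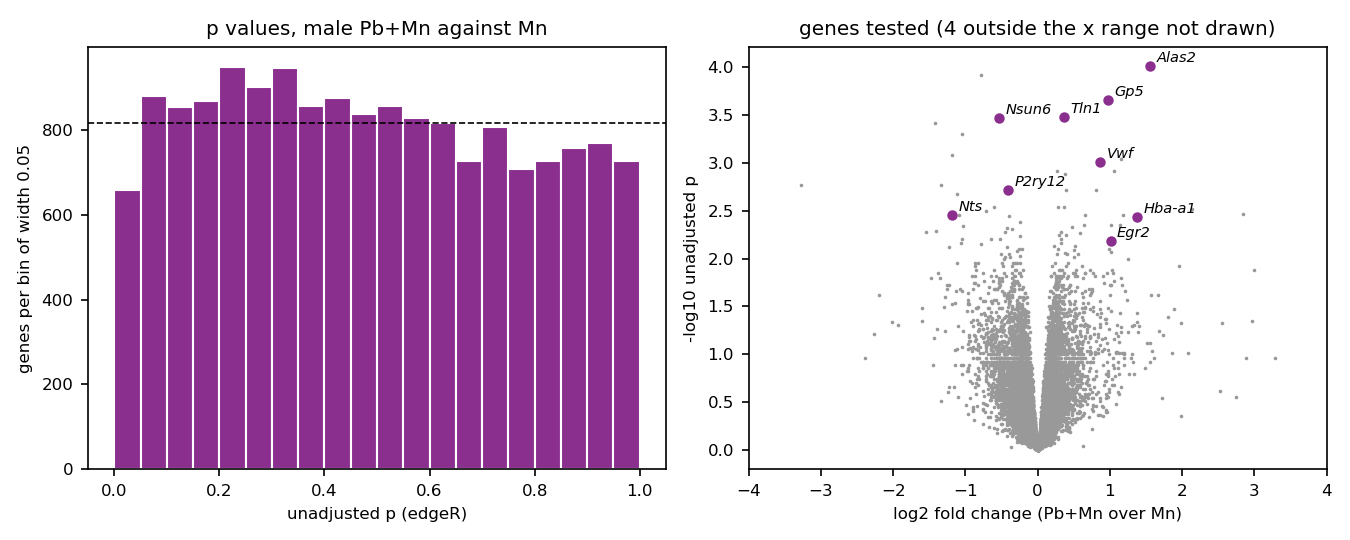
Left, number of genes in each bin of unadjusted edgeR p for male Pb+Mn against Mn, with a dashed line at the 818 genes a bin would hold if p-values were spread evenly. Right, log2 fold change against -log10 of the unadjusted p for the genes tested, with named genes in purple; the lowest p bin holds 660 genes, under the line, and Alas2 has the smallest p of the named genes.

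The smallest p of any gene belonged to Alas2, which encodes the red cell form of the first enzyme of heme synthesis. The 6 Mn libraries held 2.57 to 3.83 CPM of Alas2 (median 2.64) and the 6 Pb+Mn libraries 4.27 to 17.8 CPM (median 7.7). Every Pb+Mn library was above every Mn library, and Pb+Mn 1 was the highest. The log2 fold change was 1.56 ± 0.36 (SE), with an adjusted p of 0.88 (edgeR). Male controls averaged 3.56 ± 1.11 CPM and male Pb 5.18 ± 2.61 CPM of Alas2 (SD, n = 6 each). In females the same contrast gave 1.28 ± 0.39, with 5.39 ± 2.72 CPM in Pb+Mn against 2.14 ± 0.907 CPM in Mn. Hba-a1, an alpha-globin gene, spanned 32.9 to 98.5 CPM in Mn (median 40.3) and 59.4 to 286 CPM in Pb+Mn (median 90.1), a log2 fold change of 1.38 ± 0.45. The groups overlapped because of Mn 1, at 98.5 CPM, while the other 5 Mn libraries lay at 42.2 CPM or less. The beta-globin genes Hbb-bt and Hbb-bs had 1.06 ± 0.43 and 1.00 ± 0.43. Globin genes have near-identical copies, and their counts are uncertain where reads could be shared.

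All 5 blood genes tested were positive, with a median of 1.06, beside 49.3% positive and a median of -0.003 over all genes, and 4 of the 5 had an unadjusted p under 0.05 (4.03% of all genes). None passed after adjustment in the fit of all 48 libraries. The summed level of all 7 listed blood genes was 134 to 323 CPM in Mn and 230 to 831 CPM in Pb+Mn. This sum includes Hba-a2 and S100a8, which were not tested. The median over the list was 1.00 in females and 1.36 in male Pb against control, 2 comparisons that share no library with the main one. These genes were listed as markers of blood within the dissected tissue, whose part in the result was not tested. In bulk tissue a different number of cells of a type and a different amount of RNA per cell cannot be told apart. The list of heme enzymes, which leaves out Alas2, was spread around 0, with 6 of 12 positive and a median of 0.01. Besides enzymes of heme synthesis it holds Hmox1, Hmox2, Blvra and Blvrb, which act in heme breakdown. Alad, the enzyme that lead inhibits, held 21 to 39.5 CPM in Mn (median 24.5) and 22.5 to 32.9 CPM in Pb+Mn (median 29.6). Its log2 fold change was 0.09 (95% interval -0.26 to 0.45), and the groups overlapped.

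Gp5, which encodes glycoprotein V of the platelet receptor for von Willebrand factor, held 0.723 to 1.21 CPM in Mn (median 0.946) and 1.19 to 2.49 CPM in Pb+Mn (median 1.82), a log2 fold change of 0.97 ± 0.24. The groups overlapped by 1 Pb+Mn library, at 1.19 CPM. Vwf, von Willebrand factor itself, made by endothelium and by the platelet lineage, held 11.8 to 17.7 CPM in Mn (median 15.2) and 20.8 to 43.4 CPM in Pb+Mn (median 24). Every Pb+Mn library was above every Mn library, and Vwf gave a log2 fold change of 0.87 ± 0.25 (edgeR adjusted p = 0.94). In male Pb against control the Vwf value was -0.58 ± 0.25, and male controls averaged 21.3 ± 6.45 CPM, between the Mn mean of 15 and the Pb+Mn mean of 27.5 CPM. The Pb by Mn interaction for Vwf was 1.45 ± 0.35 on the log2 scale, with an adjusted p of 0.35 (edgeR). The 12 endothelial markers as a list stayed near 0, with 6 positive, a median of 0.03 and sums of 475 to 520 CPM in Mn and 506 to 576 CPM in Pb+Mn. Among them Kdr, a receptor for vascular endothelial growth factor, had 0.44 ± 0.19, with Mn at 16.2 to 25.9 CPM and Pb+Mn at 21.5 to 31.1 CPM.

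The promoters of Alas2 and Gp5 are shown because these are the named genes of smallest p among those higher in Pb+Mn and both belong to blood lineages, in which GATA factors act. Each window runs from 250 bases before to 50 bases after the gene's start in RefSeq on GRCm38.p6, 5′ to 3′ on the gene's strand, with matches to the GATA motif AGATAA in capitals (both strands searched, so a match on the other strand reads as its reverse complement). Alas2 lies at chrX:150547167-150547466 on the plus strand and Gp5 at chr16:30310732-30311031 on the minus strand.
Alas2: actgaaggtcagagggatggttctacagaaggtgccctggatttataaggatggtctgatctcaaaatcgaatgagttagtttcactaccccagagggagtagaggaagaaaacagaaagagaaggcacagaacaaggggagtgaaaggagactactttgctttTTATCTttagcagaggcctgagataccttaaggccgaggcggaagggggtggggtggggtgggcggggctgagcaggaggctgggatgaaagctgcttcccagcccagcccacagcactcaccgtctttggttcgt
Gp5: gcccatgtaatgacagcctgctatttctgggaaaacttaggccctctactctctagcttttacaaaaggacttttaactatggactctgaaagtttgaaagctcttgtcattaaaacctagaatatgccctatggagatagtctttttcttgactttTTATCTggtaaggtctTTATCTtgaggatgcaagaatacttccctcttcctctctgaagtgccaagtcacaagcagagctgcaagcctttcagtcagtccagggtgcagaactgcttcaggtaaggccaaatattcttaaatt
Alas2 has 1 match, whose first base is 86 bases before the start, and Gp5 has 2, at 93 and 77 bases before it. AGATAA occurs in 11.2% of the 32851 promoter windows of the same length, and a match here is a description of the letters only.

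**Figure D2:**
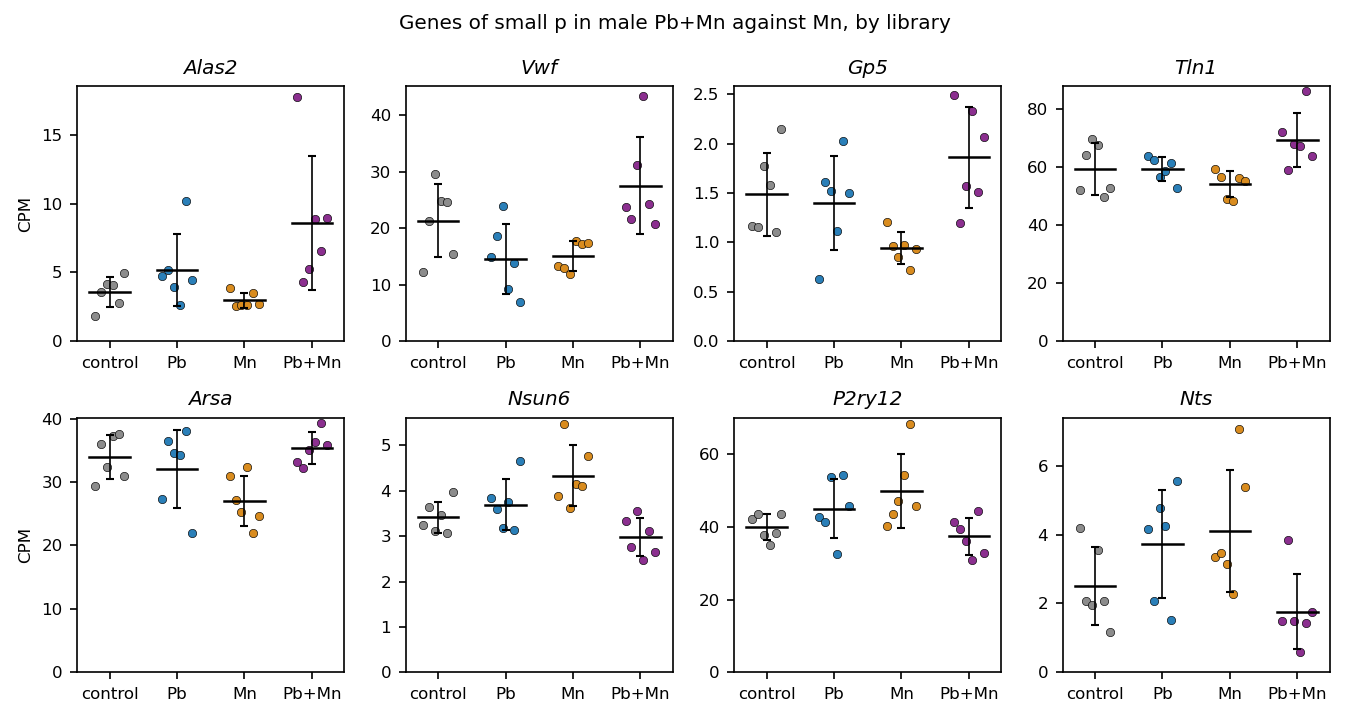
CPM of 8 genes in the 6 libraries of each male group (points), with the group mean (long bar) and SD (whiskers). For Alas2 and Vwf all Pb+Mn libraries lie above all Mn libraries and for Nsun6 all lie below, while control libraries of these 3 genes overlap both groups.

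Other named genes of small p with higher values in Pb+Mn had smaller differences. Tln1, talin, which links integrins to actin, held 48.2 to 59.3 CPM in Mn and 58.9 to 85.9 CPM in Pb+Mn, a log2 fold change of 0.36 ± 0.09. Ssh1, a phosphatase that activates cofilin, held 25.2 to 30.8 CPM in Mn and 30.1 to 41.3 CPM in Pb+Mn (0.38 ± 0.11). Myh14, a non-muscle myosin heavy chain, held 44.4 to 59.1 CPM in Mn and 59.1 to 79.4 CPM in Pb+Mn (0.37 ± 0.12). For each of these 3 genes the highest Mn library reached the lowest Pb+Mn library. Shroom3, an actin-binding protein of epithelial shape, had 0.81 ± 0.24, with 3.85 ± 1.02 CPM in Mn against 6.78 ± 1.93 CPM in Pb+Mn (SD, n = 6 each). Arsa, the lysosomal arylsulfatase A that degrades sulfatide, held 21.9 to 32.4 CPM in Mn and 32.2 to 39.3 CPM in Pb+Mn (0.39 ± 0.12). Irf2bp2, a transcriptional co-repressor, held 26.8 to 31.9 CPM in Mn and 32.7 to 39.8 CPM in Pb+Mn with no overlap (0.28 ± 0.09). Rnpepl1, an aminopeptidase-like gene, completed the 10 higher genes of smallest p at 0.27 ± 0.08. In each of the 10, all 6 Pb+Mn libraries were above the Mn mean, and none passed the threshold (edgeR adjusted p from 0.88 to 0.94). The genes were chosen for a small p in these same libraries, so that position follows largely from the choice.

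Among genes with lower values in Pb+Mn the smallest p belonged to Nsun6, a transfer RNA cytosine methyltransferase. It held 3.61 to 5.46 CPM in Mn (median 4.12) and 2.47 to 3.56 CPM in Pb+Mn (median 2.93), a log2 fold change of -0.53 ± 0.14. All 6 Pb+Mn libraries were below all 6 Mn libraries, by a narrow gap, and male controls averaged 3.42 CPM of Nsun6, inside the Pb+Mn range. P2ry12, the purine receptor that marks resting microglia, held 40.2 to 68.3 CPM in Mn (median 46.4) and 31 to 44.3 CPM in Pb+Mn (median 37.8), a log2 fold change of -0.41 ± 0.12. Its male control mean was 40.1 ± 3.54 CPM, nearer to Pb+Mn (37.5 ± 5.08) than to Mn (49.9 ± 10.2), and Mn 5, at 68.3 CPM, was the highest library. Microglial markers as a list did not follow P2ry12, with 5 of 12 positive and a median of -0.04.

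Nts, the neuropeptide neurotensin, held 2.27 to 7.07 CPM in Mn (median 3.4) and 0.6 to 3.85 CPM in Pb+Mn (median 1.49), a log2 fold change of -1.18 ± 0.38. Pb+Mn 2, at 3.85 CPM, lay within the Mn range, and the other 5 Pb+Mn libraries were under the lowest Mn library. Serpini1, neuroserpin, an inhibitor of tissue plasminogen activator in neurons, had -0.52 ± 0.18, and its Mn libraries were wide, at 113 to 239 CPM against 94.9 to 142 CPM in Pb+Mn. Exoc5, a subunit of the exocyst that tethers vesicles, had -0.39 ± 0.13, with 55.2 ± 10.5 CPM in Mn and 42.1 ± 4.34 CPM in Pb+Mn (SD, n = 6 each). Rragb, a GTPase that brings amino acid signals to mTORC1, had -0.25 ± 0.09, with 58.7 ± 5.31 CPM against 49.3 ± 4.24 CPM. The zinc finger genes Zfp873 and Zfp946 had -0.60 ± 0.19 and -0.42 ± 0.14, Wdr17 -0.36 ± 0.12 and the channel gene Calhm5 -0.45 ± 0.16. In each of these 10 genes all 6 Pb+Mn libraries were below the Mn mean, and none passed the threshold (edgeR adjusted p from 0.88 to 0.94). Here too the position follows largely from the choice of genes by p in the same libraries.

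The groups did not overlap for other named genes as well. Gtf2ird2, a gene of the TFII-I transcription factor family, held 12.1 to 13.6 CPM in Mn and 14.6 to 17.6 CPM in Pb+Mn (0.27 ± 0.10). Pard3, a scaffold of cell polarity, held 22.7 to 26.2 CPM in Mn and 27.9 to 31 CPM in Pb+Mn (0.25 ± 0.11). In the other direction Cops3, a subunit of the COP9 signalosome, held 38.6 to 47.6 CPM in Mn and 32.2 to 36.2 CPM in Pb+Mn (-0.30 ± 0.12). Skp1a, a core subunit of SCF ubiquitin ligases, held 308 to 382 CPM in Mn and 257 to 295 CPM in Pb+Mn (-0.26 ± 0.16). Mrpl50, a mitochondrial ribosomal protein gene, Rpp38, a subunit of RNase P, and the zinc finger gene Zfp354b had -0.27 ± 0.17, -0.44 ± 0.21 and -0.46 ± 0.20. The protocadherin gene Pcdhgc4 had 0.28 ± 0.24 with no overlap, at 5.27 to 8.46 CPM in Mn and 8.84 to 9.55 CPM in Pb+Mn.

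Named genes with the largest fold changes also varied widely between animals of 1 group. Baiap2l1, an actin-binding protein gene, had 1.89 ± 0.86. Among Mn libraries it held 0.591 to 1.7 CPM in 5 animals and 11.9 CPM in Mn 6, and among Pb+Mn libraries it ran from 0.752 to 25.8 CPM. Gbp4, an interferon-induced GTPase gene, had -1.60 ± 0.77, where Mn 2 held 9.4 CPM and the Pb+Mn libraries 0.465 to 1.42 CPM. Rbm47, an RNA-binding protein gene, had 1.38 ± 0.64 with 0.321 to 3.25 CPM in Mn and 0.684 to 6.68 CPM in Pb+Mn. Trhr, the receptor of thyrotropin-releasing hormone, held 0.974 to 2.97 CPM in Mn and 0.467 to 1.23 CPM in Pb+Mn (-1.06 ± 0.37). Its sex by lead interaction was -1.60 ± 0.53 (edgeR adjusted p = 1), with 1.66 ± 0.438 CPM in female Pb+Mn against 1.19 ± 0.487 CPM in female Mn.

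Immediate early genes, transcription factors and synaptic regulators that neurons switch on within minutes of activity, were the neural list farthest above 0. Of 22 members tested, 21 had a positive log2 fold change (49.3% of all genes), the median was 0.35, and 5 had an unadjusted p under 0.05, all higher (2.02% of all genes). None passed after adjustment. Egr2, a zinc finger factor, held 1.37 to 6.83 CPM in Mn (median 4.82) and 5.67 to 16.4 CPM in Pb+Mn (median 7.02), a log2 fold change of 1.01 ± 0.35 (edgeR adjusted p = 0.94). Pb+Mn 1 and Pb+Mn 2, at 16.4 and 12.7 CPM, were the 2 highest of the 12, and Mn 2 was the lowest. Fosb, a subunit of the AP-1 factor, held 7.87 to 24.6 CPM in Mn and 10.8 to 29.3 CPM in Pb+Mn (0.66 ± 0.28), where 5 of 6 Pb+Mn libraries lay above every Mn library and Pb+Mn 5 did not. Jun, its AP-1 partner, held 72.4 to 119 CPM in Mn and 104 to 136 CPM in Pb+Mn (0.35 ± 0.15). Egr4 and the anti-proliferative gene Btg2 had 0.52 ± 0.24 and 0.48 ± 0.24.

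Among members that missed an unadjusted p of 0.05, Fos had 0.54 (95% interval -0.04 to 1.13), with 15.3 to 26.1 CPM in Mn and 19 to 46.2 CPM in Pb+Mn. Arc, which regulates AMPA receptor traffic, had 0.39 ± 0.28, and its highest value, 718 CPM, was in Pb+Mn 2. Npas4, a factor specific to neuronal activity, had 0.50 ± 0.34. The neurotrophin gene Bdnf (0.04, 95% interval -0.40 to 0.49), Homer1 (0.05 ± 0.28) and the orphan receptor gene Nr4a2 (0.05 ± 0.21) were near 0, and Dusp6, a phosphatase of ERK, was the negative member at -0.10 ± 0.13. The summed level of the list was 1050 to 1890 CPM in Mn and 1560 to 2220 CPM in Pb+Mn, so the groups overlapped. Without Pb+Mn 1 the median of the list was 0.22, and over the libraries left out in turn it ran from 0.22 to 0.39.

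The same members did not lie above 0 in the comparisons that share no library with this one. In females given Pb+Mn against Mn, 8 of 22 were positive with a median of -0.07, and in males given Pb against control 2 of 22 were positive with a median of -0.23. Egr2 had -0.15 ± 0.35 in females and -0.01 ± 0.37 in male Pb against control, and Jun had 0.00 ± 0.15 and -0.34 ± 0.15. In the test of the sex difference itself, 2 of 22 members had an unadjusted p under 0.05 (1.09% of all genes), and in the Pb by Mn interaction in males 5 of 22 did (13.7% of all genes). No member passed either test after adjustment. The time of day and the handling before tissue collection are not given in the sources used here.

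**Figure D3:**
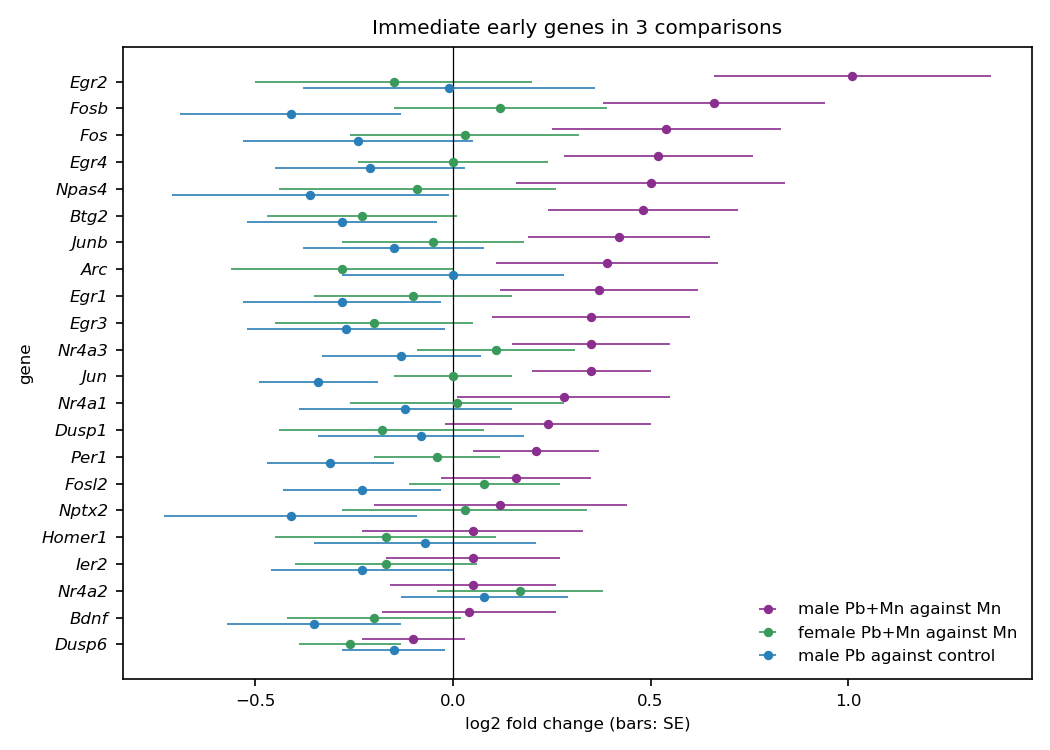
Log2 fold change (points) and SE (bars) of the 22 immediate early genes in male Pb+Mn against Mn (purple), female Pb+Mn against Mn (green) and male Pb against control (blue). In the first comparison 21 of 22 points lie right of 0, against 8 in females and 2 in male Pb against control.

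Of the 22 immediate early genes, 17 matched an entry among the RefSeq promoter windows (GRCm38.p6). The promoters of Egr2 and Btg2, members with an unadjusted p under 0.05, are shown because they hold the 2 control elements for which activity genes are known, the CArG box bound by serum response factor and the cAMP response element (CRE) TGACGTCA bound by CREB. Both strands were searched, matches are in capitals and they do not overlap. Egr2 lies at chr10:67537620-67537919 on the plus strand, in 1 of 5 windows listed for it, and Btg2 at chr1:134079106-134079405 on the minus strand.
Egr2: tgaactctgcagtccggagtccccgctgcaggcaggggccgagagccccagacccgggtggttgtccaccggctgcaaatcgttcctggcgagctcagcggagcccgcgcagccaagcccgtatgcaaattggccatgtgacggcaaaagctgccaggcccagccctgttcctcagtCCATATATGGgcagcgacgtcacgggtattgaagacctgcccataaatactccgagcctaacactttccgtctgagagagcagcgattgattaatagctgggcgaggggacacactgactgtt
Btg2: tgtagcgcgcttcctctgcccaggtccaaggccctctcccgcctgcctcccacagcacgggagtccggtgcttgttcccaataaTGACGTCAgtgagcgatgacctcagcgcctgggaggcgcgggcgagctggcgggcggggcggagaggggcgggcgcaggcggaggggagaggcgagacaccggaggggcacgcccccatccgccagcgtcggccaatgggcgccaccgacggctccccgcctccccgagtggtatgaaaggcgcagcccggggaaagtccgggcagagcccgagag
The CArG box of Egr2 begins 73 bases before the start and the CRE of Btg2 begins 166 bases before it. The CRE was found in 2 of the 17 genes, Btg2 and Dusp1 (11.8%), and in 2.03% of all 27025 genes with a window (1.79% of the 32851 windows). A CArG box was found in 1 of the 17, Egr2 (5.88%), and in 1.81% of all genes with a window (1.63% of windows). Dusp1, with a CRE, had a log2 fold change of 0.24 ± 0.26.

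Receptors and channels that lead is known to act on had list medians near 0. All 6 NMDA receptor subunits tested were positive, beside 49.3% of all genes, with a median of 0.11 and none at an unadjusted p under 0.05. Grin1, the obligatory subunit, had 0.10 (95% interval -0.25 to 0.45), Grin2a 0.03 (-0.46 to 0.52) and Grin2b 0.14 (-0.37 to 0.64). With the length trend as a covariate Grin2a and Grin2b were at -0.09 and -0.03, and without Pb+Mn 1 Grin1 was at -0.02. All 8 listed pore-forming subunits of voltage-gated calcium channels were positive too, with a median of 0.06. Of these 1, Cacna1a, had an unadjusted p under 0.05 (4.03% of all genes). Cacna1a, the P/Q-type channel of presynaptic terminals, held 127 to 180 CPM in Mn and 156 to 203 CPM in Pb+Mn, a log2 fold change of 0.24 ± 0.11. Cacna1c, an L-type channel, had 0.33 ± 0.17. In male Pb against control 0 of 6 NMDA subunits (median -0.19) and 1 of 8 calcium channel subunits (median -0.15) were positive. In female Pb+Mn against Mn 3 of 6 and 4 of 8 were positive, each list with a median of 0.01.

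Of the 12 GABA-A receptor subunits, which form the main inhibitory channel of the brain, 9 were negative and the median was -0.13. AMPA and kainate receptor subunits had 3 of 9 positive and a median of -0.01, and metabotropic glutamate receptors 3 of 7 and 0.00. Protein kinase C and calmodulin signalling had 8 of 14 positive and a median of 0.02.

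Genes that move manganese, iron and zinc were spread around 0. Of 16 manganese and iron transporters, 7 were positive, the median was -0.02 and none had an unadjusted p under 0.05. Slc30a10, the manganese exporter, held 12.8 to 19.6 CPM in Mn and 12.7 to 20.1 CPM in Pb+Mn, a log2 fold change of -0.03 (95% interval -0.32 to 0.26). The importers Slc39a14 and Slc11a2 had 0.08 (-0.14 to 0.31) and -0.16 (-0.34 to 0.03), and Slc39a8 had -0.26 (-0.55 to 0.04). The metallothioneins, which bind heavy metals, had 0.00 (-0.44 to 0.44) for Mt1, 0.17 (-0.41 to 0.75) for Mt2 and -0.26 (-0.71 to 0.19) for the brain form Mt3. Slc30a4, a vesicular zinc exporter, was the 1 of 12 genes of its list at an unadjusted p under 0.05 (4.03% of all genes). It held 57.3 to 61.1 CPM in 5 Mn libraries and 39.1 CPM in Mn 1, against 44.2 to 50.4 CPM in Pb+Mn (-0.22 ± 0.10).

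The oxytocin receptor gene Oxtr, which acts in social recognition, held 3.94 to 9.06 CPM in Mn and 3.33 to 10.7 CPM in Pb+Mn, a log2 fold change of 0.37 (95% interval -0.11 to 0.85). Avpr1b, the vasopressin receptor of CA2, held 0.371 to 2.11 CPM in Mn and 0.475 to 1.16 CPM in Pb+Mn, at -0.42 (-1.31 to 0.46). Both groups of libraries overlapped for each gene.

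Among stress and defence pathways the unfolded protein response had 4 of 12 members positive and a median of -0.04, and Dnajb9, a chaperone of the endoplasmic reticulum, was its 1 member at an unadjusted p under 0.05 (4.03% of all genes), with 42.4 ± 5.26 CPM in Mn against 36.3 ± 1.95 CPM in Pb+Mn (SD, n = 6 each). Its log2 fold change was -0.22 ± 0.08. Antioxidant genes had 10 of 16 positive and a median of 0.04, glucocorticoid-responsive genes 11 of 13 and 0.08, interferon and antigen presentation genes 9 of 14 and 0.02, and clock genes 8 of 14 and 0.05. None of these 4 lists had a member at an unadjusted p under 0.05.

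Markers of dentate granule cells had 10 of 12 positive with a median of 0.18, and markers of CA1 pyramidal neurons 2 of 10 positive with a median of -0.21. In neither list did a member have an unadjusted p under 0.05. Stxbp6, a granule cell marker that binds SNARE proteins, had 0.36 ± 0.18, and Spink8, a CA1 marker, had -0.66 ± 0.37, with 20.8 to 31.7 CPM in Mn and 12.5 to 22.5 CPM in Pb+Mn. In male Pb against control the medians of the granule cell and CA1 lists were -0.34 and 0.19. Markers of CA2 and CA3 neurons (5 of 12 positive, median -0.03), interneurons (5 of 15, -0.03), astrocytes (5 of 12, 0.00) and myelin (3 of 12, -0.06) were near 0. Whether the fields were cut in different proportions was not tested.

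**Figure D4:**
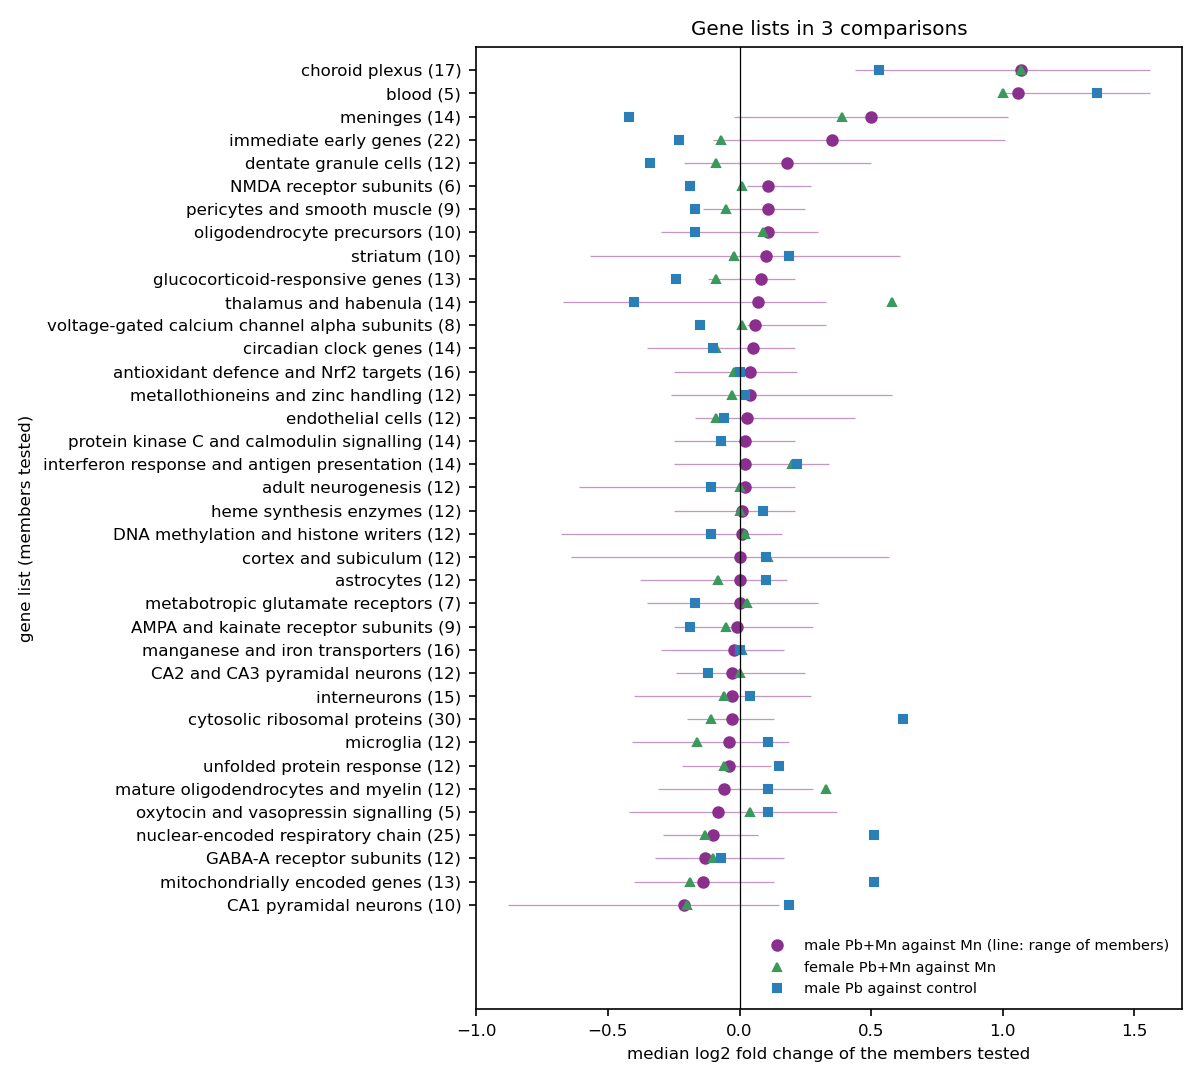
Median log2 fold change of the members of 37 gene lists in male Pb+Mn against Mn (purple, with the range of members as a line), female Pb+Mn against Mn (green) and male Pb against control (blue); the number of members tested is in brackets. Choroid plexus and blood have medians of 1.07 and 1.06 in the first comparison and of 1.07 and 1.00 in females, and immediate early genes lie at 0.35 in the first comparison.

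Of 5 lists of tissues that border the hippocampus, those of choroid plexus and meninges had the higher medians. Those of cortex and subiculum (6 of 12 positive, median 0.00) and striatum (6 of 10, 0.10) were near 0. Thalamus and habenula (9 of 14, 0.07) depended on single libraries, with a median of 0.64 without Mn 2 and -0.11 without Mn 3. Their summed markers were 234 to 928 CPM in Mn (median 261) and 321 to 517 CPM in Pb+Mn (median 430). All 17 choroid plexus markers tested were positive, with a median of 1.07, and 1, the growth factor gene Igf2 (1.23 ± 0.54), had an unadjusted p under 0.05 (4.03% of all genes). Ttr, transthyretin, an abundant product of this epithelium, ran from 43.2 to 1730 CPM in Mn and from 36.8 to 3610 CPM in Pb+Mn, a log2 fold change of 1.08 ± 1.11. In Mn 3 libraries held 1120 to 1730 CPM of Ttr and in Pb+Mn 3 held 1860 to 3610 CPM, while the other 3 of each group were at 617 CPM or less. The list median was 1.07 in females and 0.53 in male Pb against control, and 0.69 without Pb+Mn 4. Meningeal markers had 13 of 14 positive and a median of 0.50, with Col1a1 (0.65 ± 0.29) and the sulfate transporter gene Slc13a4 (1.02 ± 0.47) at an unadjusted p under 0.05, 2 of the 14 beside 4.03% of all genes. Summed meningeal markers were 270 to 895 CPM in Mn and 737 to 939 CPM in Pb+Mn, and the median over the list was 0.32 without Mn 3. The part of these tissues in the other differences was not tested.

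**Figure D5:**
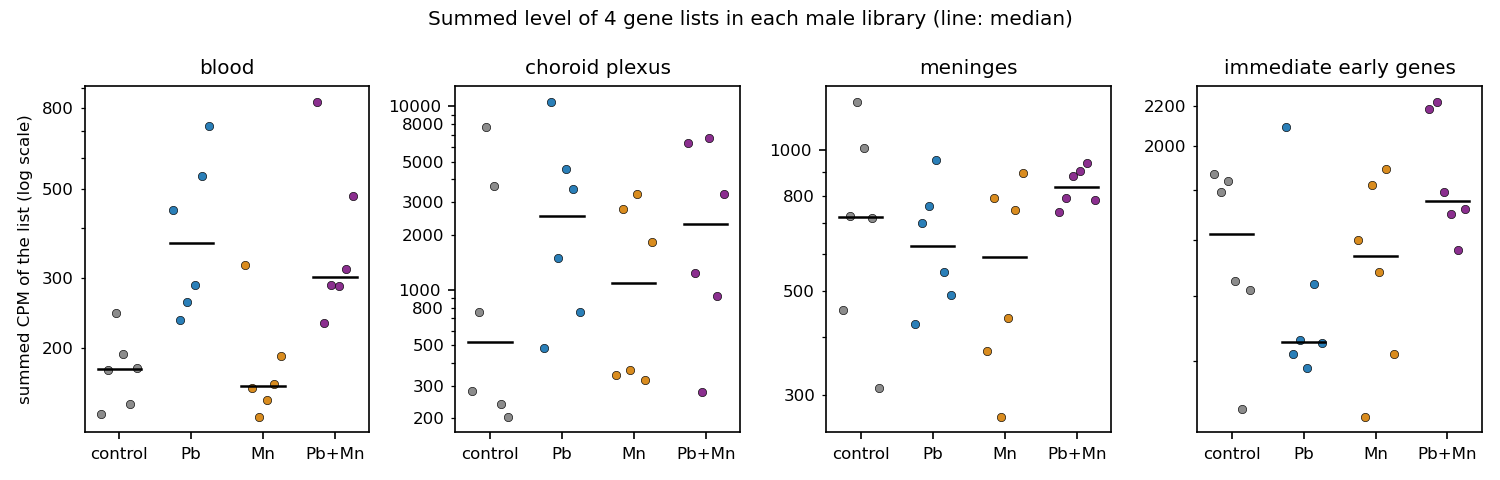
Summed CPM of 4 gene lists in each library of the 4 male groups, on a log scale, with the group median as a line. Blood sums in Pb+Mn (230 to 831 CPM) lie above 5 of 6 Mn libraries, choroid plexus sums are split within every group, and immediate early gene sums overlap between Mn and Pb+Mn.

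Across all 16360 genes, the log2 fold changes of male Pb+Mn against Mn were set beside those of comparisons that share no library with it, as a description over genes that are not independent. With female Pb+Mn against Mn the Pearson correlation was 0.32 and the Spearman correlation 0.35, with the same sign in 64.4% of genes. Of the 660 genes at an unadjusted p under 0.05 in males, 534 (80.9%) had the same sign in females, and 44 of them had an unadjusted p under 0.05 there as well. All 10 of the higher genes named first and 9 of the 10 lower genes had the same sign in females. In male Pb against control 4 of those 10 higher genes and 0 of the 10 lower genes had the same sign. The length trend was also higher in Pb+Mn than in Mn in females, at 0.051 ± 0.04 against 0.022 ± 0.104 (SD, n = 6 each). With that trend as a covariate the Pearson correlation with females was 0.27.

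With male Pb against control, lead added without manganese, the Pearson correlation was -0.19 and the Spearman correlation -0.33, with the same sign in 36.2% of genes and in 196 (29.7%) of the 660. Without male Pb 6, the library left out after seeing the data, the correlations were -0.03 and -0.11 and 391 of 829 genes (47.2%) had the same sign. With the length trend as a covariate they were -0.03 and -0.06, and 315 of 772 genes (40.8%) had the same sign. The trend averaged -0.107 ± 0.163 in male Pb, with a lowest library of -0.407, and 0.001 ± 0.079 in male controls. Cytosolic ribosomal protein genes had a median of -0.03 under Pb+Mn against Mn (10 of 30 positive) and of 0.62 under Pb against control. Over the alternatives run, the first median ranged from -0.12 to 0.08. The summed level of these genes was 6370 to 17600 CPM in male Pb and 6030 to 8220 CPM in male controls. The cause was not tested.

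The effect of lead with manganese was tested against its effect without manganese and against its effect in females. The Pb by Mn interaction in males had 0 genes (0%) past the threshold, a smallest adjusted p of 0.35 (edgeR) and 2249 genes at an unadjusted p under 0.05 (910 higher, 5.56%, and 1339 lower, 8.18%). The sex by lead interaction had 0 genes past the threshold and 178 at an unadjusted p under 0.05 (69 higher, 0.422%, and 109 lower, 0.666%). Female Pb+Mn against Mn gave 0 genes past the threshold and 417 (2.55%) with a p under 0.05 before adjustment, 279 higher (1.71%) and 138 lower (0.844%). Male Pb against control gave 0 genes past the threshold and 2046 (12.5%) with a p under 0.05 before adjustment, 1354 higher (8.28%) and 692 lower (4.23%). Both interactions use the 12 libraries of the main comparison, and genes named for a small p there are not independent evidence in them.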

How the data were processed

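Hippocampal RNA of 48 CD-1 mice, 6 in each of 8 groups of sex and exposure, was sequenced as 100-base pairs after Illumina Stranded mRNA preparation, per the labels' protocols. The deposited values are raw read counts per gene in whole numbers. The submitters' processing notes name featureCounts 2.0.6, STAR 2.7.10b and Trim Galore 0.6.9, besides limma, edgeR, R 4.4.2 and the build GRCm39. The settings of featureCounts for strand and for reads with several matches are not given in the sources used here. Of 57126 gene identifiers, 51884 matched a symbol. Transcript lengths and names came from GENCODE M21, another build, so no gene coordinates are given other than RefSeq promoter windows on GRCm38.p6.

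Counts were analysed with the quasi-likelihood test of edgeR 4.0.16 in R 4.3.3 (two-sided): TMM scaling, filterByExpr, 1 fit of all 48 libraries by group, and adjustment over 16360 genes by Benjamini-Hochberg at 0.05. Standard errors were approximated from F as the fold change over its square root. CPM used TMM-scaled totals. The length trend is the slope of log2 expression on log2 transcript length over 10206 genes, relative to the mean library. The test was tested on simulated data (154 calls, 10 false). No pair of libraries of a group agreed within sampling noise. Named genes were the 10 higher and 10 lower of smallest p, up to 5 in each direction whose groups did not overlap, the 4 highest and 4 lowest fold changes at an unadjusted p under 0.05, the 2 of smallest p in each list and 14 fixed genes. Gene models without a name, pseudogenes, sex-linked genes and genes with a mean log2 CPM under 0 were left out of the first 3 classes. The members, the 38 lists and the rules were chosen with earlier results of these data known. Alternatives were other libraries in the fit, scaling, filters, DESeq2 1.42.0, limma 3.58.1 voom with and without library weights, a replicate block, the length trend as covariate and each library left out. A legacy edgeR dispersion was added after seeing the data, as were the fold-change comparisons with the length trend and without male Pb 6. Some genes that the rule names are not reported here.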

Additional observations from a re-analysis of the deposited data

Results flagged for a closer look

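Of 232 sets of 6 libraries (116 named genes in both groups), 17 had 1 library that stood apart by Dixon's test at the 95% level, and chance flags about 1 in 20. All values are CPM, and no explanation was tested.

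In Mn 1, Hba-a1 was at 98.5 (the other 5 at 32.9 to 42.2), Alad at 39.5 (21 to 26.5) and the zinc exporter Slc30a4 at 39.1 (57.3 to 61.1). In Mn 2, Egr2 was at 1.37 (4.03 to 6.83) and Ndufs1, a subunit of respiratory complex I, at 103 (119 to 125). In Mn 4 the markers of immature neurons Dcx and Igfbpl1 were at 18.7 (7.18 to 10.1) and 12.4 (2.63 to 4.27), and Pcdhgc4 was at 5.27 (7.55 to 8.46). In Mn 6, Baiap2l1 was at 11.9 (0.591 to 1.7).

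In Pb+Mn 2, Stxbp6 was at 68.6 (95.9 to 106) and Cspg4, a marker of oligodendrocyte precursors, at 18 (22 to 24.7). In Pb+Mn 3 the astrocyte gene Aldh1l1 was at 91.2 (66.7 to 70.2). In Pb+Mn 4 the myelin regulator Myrf was at 102 (68.5 to 78.5) and Bdnf at 56 (35 to 39.5). In Pb+Mn 5, Fosb was at 10.8 (26.2 to 29.3). In Pb+Mn 6 the glutamate receptor gene Grm8 was at 2.07 (2.87 to 3.42) and the DNA methyltransferase gene Dnmt3b at 0.129 (0.334 to 0.479).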

How the results depend on the processing

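For male Pb+Mn against Mn, no gene passed the threshold under any alternative run other than the replicate block, which was fitted on the 12 libraries. Genes at an unadjusted p under 0.05 numbered 660 in the main fit, against an even spread of 818 for its 16360 genes. They numbered 1320 in the 12 libraries alone, 1665 by limma voom with library weights and 1615 with the replicate block in the 12 libraries. With no filter on low counts they numbered 1118, over a larger set of genes, whose even spread would be above 818. With 1 library left out they ranged from 417 (without Mn 6) to 961 (without Mn 1). With no filter, over that larger set, females had 909 and the sex by lead interaction 646. With 1 library left out, that interaction ranged from 139 (without Mn 2) to 283 (without Mn 1). The causes were not tested. Upper-quartile scaling moved the split of higher and lower genes from 331 and 329 to 274 and 395.

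The replicate block passed 3 genes, all higher: Hba-a1 (1.28 ± 0.11, edgeR adjusted p = 0.0028), Hbb-bs (0.93 ± 0.10, 0.012) and Hbb-bt (1.04 ± 0.13, 0.024). Alas2 had an adjusted p of 0.054 there (edgeR). Same-numbered libraries did not deviate together throughout, with correlations of -0.05 to 0.21, and 3 of 6 numbers correlated best with their own, so the numbers were not taken as pairs. Of the named genes Sgk1 (0.21) changed sign by more than its standard error, to -0.06 without Pb+Mn 4, with 0.30 the highest value when a library was left out. Changes of sign within 1 standard error occurred for Bdnf, Grin1, Grin2a, Grin2b, Mt1, Mt2 and Slc30a10. In simulated data with 154 calls and no variation shared between genes, 42.9% of 1.5-fold differences were detected.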

Other observations

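Outside the rule for named genes, and chosen after their values were seen, the unnamed gene models D830030K20Rik and Gm3636 had the widest gaps between the groups. D830030K20Rik averaged 0.57 ± 0.219 CPM in Mn and 0.0265 ± 0.0303 CPM in Pb+Mn (SD, n = 6 each), and Gm3636 averaged 0.575 ± 0.254 and 0.0527 ± 0.0603 CPM. All 6 Pb+Mn libraries were below all 6 Mn libraries for both models, and neither passed the threshold (edgeR adjusted p of 0.88 and 0.94). Male controls averaged 0.151 ± 0.225 CPM of D830030K20Rik and female Pb+Mn 0.445 ± 0.384 CPM. Both models averaged under 1 CPM in each of these groups.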
